A study of Mus musculus domesticus with 18 samples.

Results

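High altitude location B is 1 of 3 places near La Paz, Bolivia, at 3600 m, where wild male house mice (Mus musculus domesticus) were trapped. It is represented by 3 mice of the 18 in the series, called B1, B2 and B3. They were chosen by the location in their sample names and set against the 6 mice from the other high altitude places, A (A1, A2 and A4) and C (C1, C2 and C3). A further 9 mice from 3 places near Lima, Peru, at 100 m, were used only to place the levels. The location letters of the altitudes do not correspond. One label field names a laboratory strain, C57BL/6J, for every mouse, although the titles and the design describe trapped mice; the mice were treated as wild here. All are males, and no treatment, age, kinship or trapping date is given in the sources used here. Liver RNA from each mouse was hybridised to an Affymetrix GeneChip mouse array, and the deposited values are log2 RMA levels of 45101 probe sets. Of these, 34945 probe sets were assigned to a single gene, and they cover 18193 genes. Because B is a single place, the spread in every p-value below is that between mice caught in the same place, not between places, and no test over places was possible.

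The liver makes most plasma proteins and bile acids, burns and stores fat, and detoxifies foreign compounds by oxidation with cytochromes P450 and conjugation with glutathione, glucuronide or sulfate. Hepatocytes supply most of its RNA. Kupffer cells, the resident macrophages, and sinusoidal endothelial cells, which clear immune complexes from the blood, supply much of the remainder. In bulk tissue, fewer cells of a type and less RNA per cell cannot be told apart. An expression array of this kind labels RNA from its 3' end, so a transcript that has been broken loses signal in the probe sets that lie towards its 5' end. The array carries control probe sets for the 3' end, middle and 5' end of several transcripts, and the 3' minus 5' difference of log2 levels is used as a measure of RNA integrity, larger when the RNA is more broken.

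RNA integrity, read as the 3' minus 5' difference, differed between the B mice and the others for 3 of 4 control transcripts. The 3' minus 5' difference of Actb, the cytoskeletal actin, was 2.02 in B1, 1.46 in B2 and 1.63 in B3. It was 0.84, 1.36 and 1.36 in A1, A2 and A4, and 1.38, 1.21 and 1.31 in C1, C2 and C3. Every B mouse thus lay above every A and C mouse, and B1 stood furthest out. The mean was 1.70 ± 0.29 (SD, n = 3) against 1.24 ± 0.21 (SD, n = 6), a difference of 0.46 (exact two-sided permutation test over 84 splits, p = 0.0238, the smallest p that this design allows; 0.0317 adjusted over 4 control transcripts). Without B1 the difference was 0.30. In the 9 low altitude mice the 3' minus 5' difference ranged from 0.98 to 1.45. The difference for Gapdh, the glycolytic enzyme, was 0.23 higher in B, with B mice at 0.28 to 0.39 and the others at -0.11 to 0.18 (exact permutation p = 0.0238). The 3' minus middle difference of Gapdh did not separate them, at a mean of 0.22 in both groups (exact permutation p = 1.0), whereas that of Actb was 0.40 higher in B (exact permutation p = 0.0238). The 3' minus 5' difference of pyruvate carboxylase, a mitochondrial enzyme that feeds glucose synthesis, was 3.88, 2.66 and 3.12 in B1, B2 and B3. It was 1.94 to 2.65 in the A and C mice, a difference of 0.86 (exact permutation p = 0.0238). The low altitude mice ranged from 2.47 to 3.22 here, which includes the values of B2 and B3. The B mice and the others overlapped for the transferrin receptor control, at 2.13 to 2.41 against 1.70 to 2.14 (difference 0.27, exact permutation p = 0.0714). Control probe sets for 18S ribosomal RNA averaged 8.88, 7.20 and 7.95 in B1, B2 and B3 and 6.97 to 7.76 in the others, which overlapped (exact permutation p = 0.0952).

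**Figure D1:**
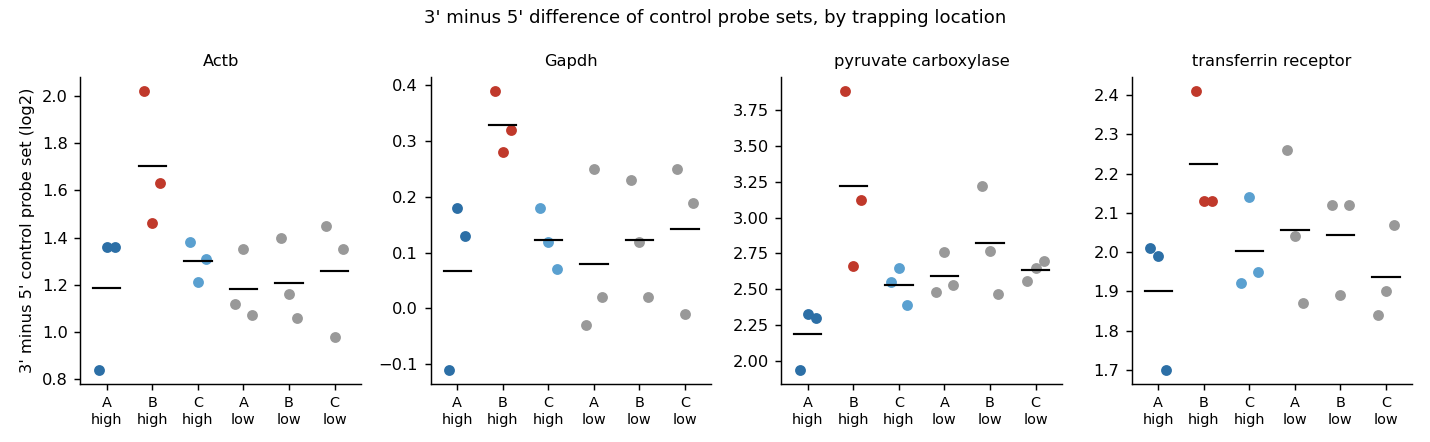
Difference between the 3' and 5' control probe sets (log2, y axis) of 4 transcripts in each mouse, by altitude and trapping location (x axis). Points are mice, bars are means of 3 mice, and high altitude B is red. For Actb, Gapdh and pyruvate carboxylase all 3 B mice lie above the 6 A and C mice, and B1 is the highest of the 18 for each.

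Location B differed from A and C in 75 of 34945 probe sets at an adjusted p under 0.05 (limma, Benjamini-Hochberg), 0.215% of those tested. Of these, 30 were higher in B (0.0858% of those tested) and 45 were lower (0.129%). They belong to 72 of the 18193 genes (0.396%), 27 higher and 45 lower, with 2 called probe sets each for Pgap6, Ift27 and Rims4. At least a 2-fold difference was reached by 31 of the 75, 13 higher and 18 lower. In 70 of the 75 the B mice did not overlap the A and C mice, an arrangement found in 4.78% of all probe sets. Between A and C, measured in the same fit, 21 probe sets differed (0.0601%), and between B and the low altitude mice 133 did (0.381%), in a comparison that uses the same B arrays. The count depended on single mice. It was 32 without A1, 27 without B1, 114 without B2, 11 without B3, 22 without C1 and 29 without C3, and each of the 75 kept its direction in all 9 omissions. Of the 75 calls, 14 were kept without B1 and 10 without B3. The genes called in every omission were 8: Sdc4, Cryaa, Gm20300, 5730409E04Rik, Cyp4f14, Iqcg, Nqo2 and H2-Aa. The first 4 of them were already known from earlier results of these data. The other 67 probe sets lost the call in at least 1 omission.

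With the Actb 3' minus 5' difference of each array as a covariate, 3 probe sets passed (0.00858% of those tested): Sdc4, Cryaa and Rfx4. All 75 kept their direction, and each had an unadjusted p under 0.05. The median size of their differences was 0.91 with and without the covariate, 53 were smaller with it, and their median standard error was 0.20 with it and 0.16 without. Over all probe sets, 2277 had an unadjusted p under 0.05 with the covariate and 3612 without. The covariate and location B overlap in these arrays, so the share of a difference that goes with integrity and the share that goes with location cannot be told apart.

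**Figure D2:**
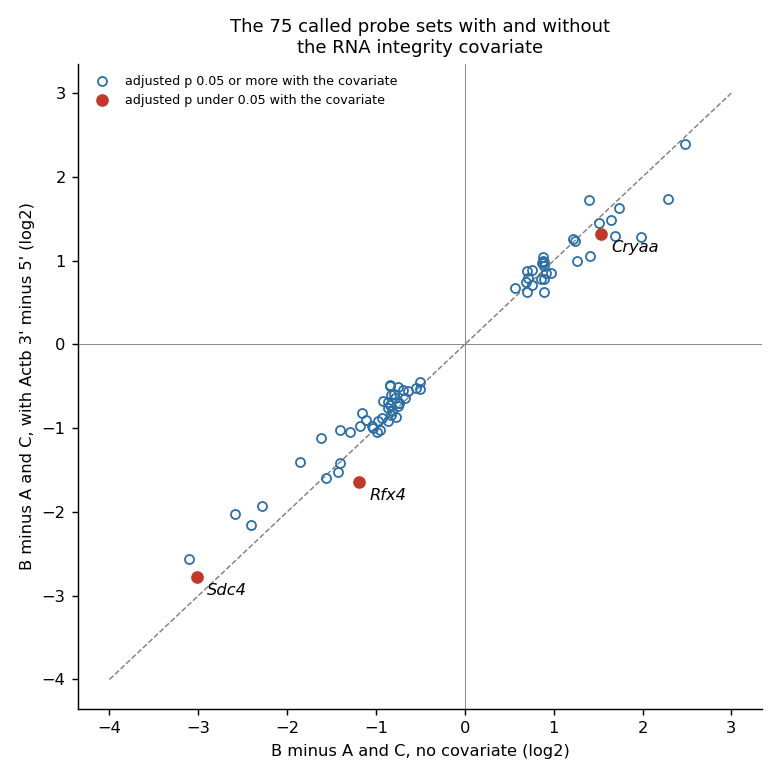
Log2 difference of B from A and C for the 75 called probe sets, without (x axis) and with (y axis) the Actb 3' minus 5' difference as a covariate. The dashed line marks equal values and filled points are the 3 that passed with the covariate. The points lie along the line, and none changes sign.

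Sdc4, which encodes syndecan 4, a cell surface proteoglycan that carries heparan sulfate chains and binds growth factors, chemokines and lipoproteins, had the smallest p. Its level was 9.95, 10.04 and 10.19 in B1, B2 and B3. It was 13.12, 13.59 and 13.11 in A1, A2 and A4 and 13.10, 12.58 and 13.01 in C1, C2 and C3. The B mice were close together and lay below all other mice of the series, whose low altitude members ranged from 11.15 to 13.37. The difference was -3.02 ± 0.24 on the log2 scale (SE), or 8.13-fold lower (limma, adjusted p = 3e-05). It was -2.78 with the integrity covariate (adjusted p = 0.00649), and the highest adjusted p on omission of a mouse was 0.0004. The other Sdc4 probe set, which is dimmer, had a difference of the opposite sign that did not pass, at 7.13 in B and 6.65 in A and C (difference 0.48 ± 0.36, adjusted p = 0.716). Among the 21 measured genes for heparan sulfate proteoglycans and their enzymes, Sdc4 was the single gene called, 10 were higher and 11 lower in B, and the median difference was -0.01. Sulf2, an extracellular 6-O-sulfatase of heparan sulfate, came next with a difference of -0.85 ± 0.29, which did not pass (adjusted p = 0.297).

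Gm20300, a predicted gene without a described role, was at 6.16, 5.91 and 5.81 in B1, B2 and B3. It was at 8.56, 8.49 and 7.56 in the A mice and 7.88, 8.78 and 8.96 in the C mice, and at 8.12 to 9.11 at low altitude. The B mice again lay below all 15 others. The difference was -2.41 ± 0.25, 5.32-fold lower (adjusted p = 0.000404), and -2.16 with the integrity covariate (adjusted p = 0.0521). 5730409E04Rik, an uncharacterised protein-coding gene, was at 4.63, 4.86 and 4.44 in B1, B2 and B3 against 5.44 to 5.79 in A and C, 2.05-fold lower (difference -1.03 ± 0.12, adjusted p = 0.0013). Its low altitude range, 4.71 to 5.63, overlapped the B mice. This probe set is dim, with a mean below the median probe set level of 5.69.

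Cryaa, which encodes the lens chaperone alpha A crystallin, was higher in B. Its level was 7.45, 6.94 and 6.86 in B1, B2 and B3, 5.39, 5.75 and 5.42 in the A mice, and 5.67, 5.40 and 5.67 in the C mice. The low altitude mice ranged from 5.45 to 5.94, so that all 15 other mice lay in a narrow band near the median probe set level and only the B mice stood above it. The difference was 1.53 ± 0.14, or 2.89-fold (adjusted p = 8.85e-05), and 1.32 with the covariate (adjusted p = 0.0144). The other crystallins and small heat shock proteins were not called. Their list of 18 had a median difference of 0.06 with Cryaa included, and the member with the next smallest p, Hspb8, had an adjusted p of 0.718.

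**Figure D3:**
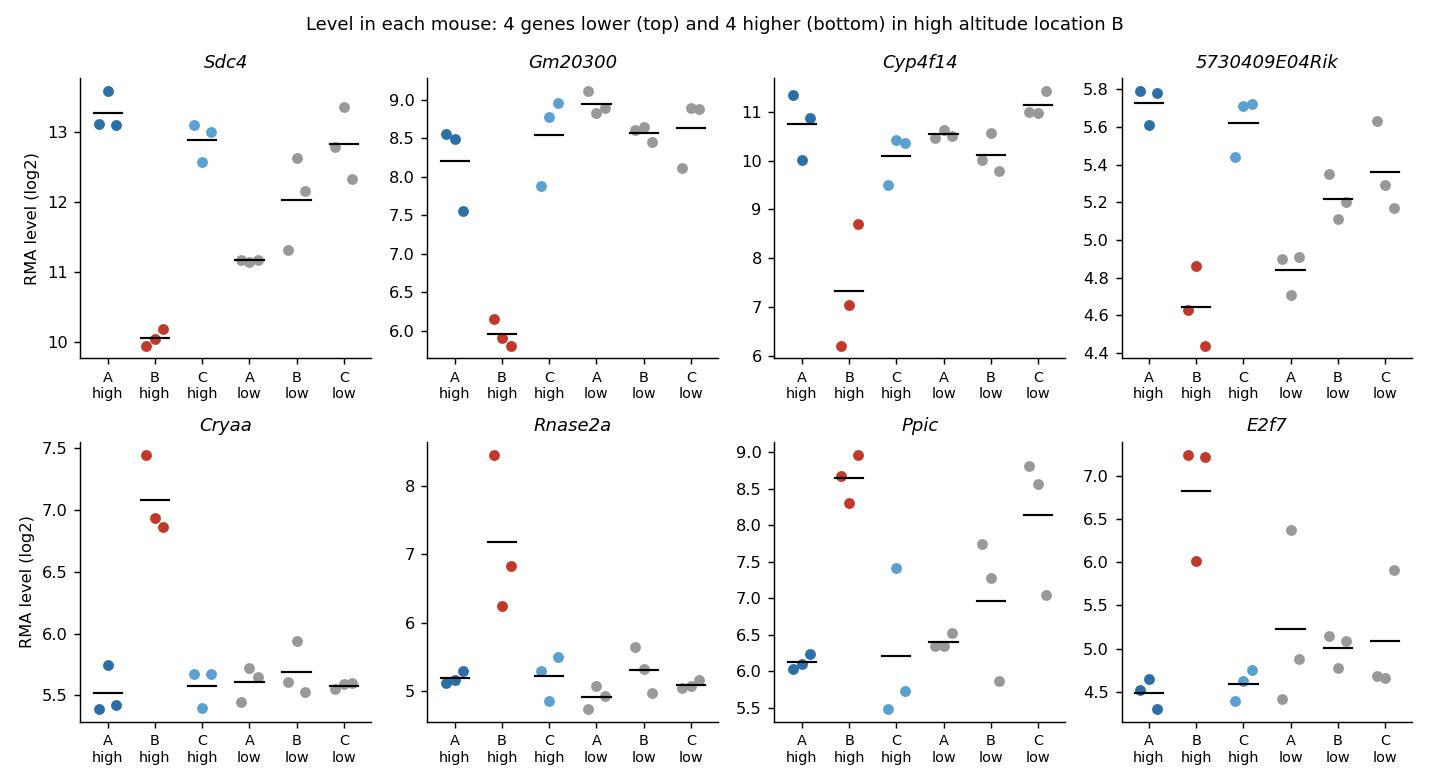
RMA level (log2, y axis) of 8 genes in each mouse by altitude and location (x axis); points are mice, bars are means of 3 mice, and high altitude B is red. The upper row holds genes lower in B and the lower row genes higher in B. Sdc4, Gm20300 and Cyp4f14 in B lie below all other mice, and Cryaa and Rnase2a in B lie above all others, whereas the B levels of Ppic, E2f7 and 5730409E04Rik overlap those of low altitude mice.

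Cyp4f14, a cytochrome P450 of the family that hydroxylates the far end of fatty acids and leukotrienes, was at 6.21, 7.05 and 8.71 in B1, B2 and B3, with the A mice at 10.02 to 11.35 and the C mice at 9.50 to 10.41. The difference was -3.10 ± 0.40, 8.55-fold lower (adjusted p = 0.00468), and the B mice lay below all 15 others, although they spread widely among themselves. With the integrity covariate it was -2.56 (adjusted p = 0.223). Hsd17b11, a steroid and retinoid dehydrogenase of lipid droplets, was at 7.43, 9.05 and 8.33 in B against 9.69 to 10.66, 3.63-fold lower (difference -1.86 ± 0.34, adjusted p = 0.0294). Its brightest probe set had a difference of -0.69 ± 0.17 that did not pass (adjusted p = 0.111). Plaat3, a phospholipase A and acyltransferase, was at 5.70, 6.99 and 5.76 against 7.12 to 8.66, 3.07-fold lower (adjusted p = 0.0416), and its other probe set had a difference of -1.42 ± 0.32 (adjusted p = 0.0826). Pecr, the peroxisomal enoyl-CoA reductase of fatty acid chain elongation, was at 10.79, 10.54 and 10.68 against 11.10 to 12.04, 1.81-fold lower (adjusted p = 0.0133) and below all 15 other mice.

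Lipo3, a member of the acid lipase family, was also called lower in B (adjusted p = 0.00932), but the B mice were near the A mice. It was at 3.70, 4.03 and 3.94 in the B mice, 3.79, 4.03 and 4.86 in the A mice, and 6.69, 6.57 and 5.99 in the C mice. The B mice overlapped the A mice, and A and C differed by -2.19 (adjusted p = 0.00113). The low altitude mice, at 4.77 to 6.41, lay above all B mice and overlapped the C mice and A4. Slc18b1, a vesicular polyamine transporter, was likewise nearer to A: its difference from A was -0.65 (adjusted p = 0.361) and from C -2.16 (adjusted p = 0.000982). In both genes B was thus further from C than from A. For Slc18b1 the B mice, at 4.75 to 5.27, still lay below all A mice, at 5.58 to 5.88.

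The glutathione transferase Gsta4, which detoxifies the lipid peroxidation product hydroxynonenal, was at 7.85, 8.57 and 8.22 in B1, B2 and B3. It was at 10.13, 10.18 and 10.62 in the A mice and 10.67, 10.63 and 10.76 in the C mice, and it ranged from 7.16 to 10.43 at low altitude. The B mice lay below A and C without overlap, but inside the range of the low altitude mice. The difference was -2.28 ± 0.43, 4.87-fold lower (adjusted p = 0.0355), and -1.93 with the covariate (adjusted p = 0.511). The call was lost in 7 of the 9 omissions, with adjusted p up to 0.173. Gsta4 was the only one called of 30 measured conjugating enzymes. Of those, 20 were lower and 10 higher in B, with a median difference of -0.21, against 9472 higher and 8721 lower and a median of 0.01 over all genes. Gsta2 was at 7.30, 6.93 and 7.69 in B against 9.91 to 12.16 and Gstm3 at 9.99, 9.40 and 8.69 against 10.19 to 12.64. Neither passed, at adjusted p of 0.118 and 0.138. Gstm1 was at 12.45, 12.26 and 12.17 against 12.77 to 13.33 and did not pass either (adjusted p = 0.117). An alternative fit set B against the pooled A and C mice on the 9 high altitude arrays alone. It called 18 of 34945 probe sets, with Gsta2, Gsta4 and Gstm1 among them. That fit leaves out the spread among the low altitude mice, where Gsta4 ranged from 7.16 to 10.43. Transferases of this family have similar sequences, and the signal of 1 probe set may include that of another member. The mean level of the list was 10.23, 10.11 and 9.94 in B1, B2 and B3 and 10.37 to 10.87 in A and C. Its median difference was -0.08 without B3.

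Other enzymes called lower in B include Nqo2, a quinone reductase, at 8.54, 9.13 and 9.21 against 9.76 to 10.32. It was 2.16-fold lower (difference -1.11 ± 0.16, adjusted p = 0.00771), and the call held in each omission. Its other probe sets, which are dimmer, differed by -0.32 (adjusted p = 0.37) and, with the opposite sign, by 0.83 (adjusted p = 0.147). Amdhd1, an enzyme of histidine breakdown, was at 8.11, 9.55 and 8.70 against 9.94 to 10.83, 2.63-fold lower (adjusted p = 0.0362), and lost the call in 7 of the 9 omissions. Its other probe set had a difference of -1.12 ± 0.26 (adjusted p = 0.0826). Mtap, which salvages methionine from methylthioadenosine, was 2.44-fold lower (adjusted p = 0.0245), but its brightest probe set differed by -0.09 ± 0.16. Another Mtap probe set, at 7.07, 7.21 and 6.99 in B against 7.52 to 8.35, differed by -0.80 ± 0.18 without passing (adjusted p = 0.0826). Both Sod1 probe sets that are bright, at mean levels of 11.39 and 10.59, were not lower in B (differences 0.34 and 0.53, adjusted p = 0.672 and 0.613). The called one for this cytosolic superoxide dismutase is dim, at 5.82, 6.34 and 5.40 in B against 6.35 to 7.38 (adjusted p = 0.038).

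Genes of the cell's basic machinery were called singly. Rpl14, a protein of the large ribosomal subunit, was at 4.80, 4.61 and 4.96 in B against 6.46 to 8.13, 6.00-fold lower (difference -2.59 ± 0.48, adjusted p = 0.034), and the B mice lay below all 15 others. The call was lost in 7 of the 9 omissions, and the difference was -2.02 with the integrity covariate (adjusted p = 0.512). This probe set is dim for a ribosomal protein, at a mean of 6.77 over all arrays. The ribosomal protein genes measured had a mean level of 10.75 in B. The other 24 ribosomal protein genes measured were not called. Over all 25 the median difference was 0.06, and the member with the next smallest p, Rps27, had a difference of 0.20 (adjusted p = 0.53). Chchd6, a subunit of the complex that shapes mitochondrial cristae, was 2.07-fold lower at a dim probe set (4.52, 4.90 and 4.69 against 5.33 to 6.13, adjusted p = 0.0105), and its brighter probe set differed by -0.25 ± 0.15. Of 43 oxidative phosphorylation subunits 35 were lower, with a median of -0.10 and none called; the median was -0.06 without A4 and without B1. Rfx4, a transcription factor of the RFX family, was at 4.42, 4.23 and 4.42 against 4.59 to 6.32, 2.29-fold lower (adjusted p = 0.0285). It passed with the covariate at -1.64 (adjusted p = 0.0339), but its other probe set, which is brighter, differed by 0.14 ± 0.10. At the called probe set B differed by -1.62 from A (adjusted p = 0.0118) and by -0.77 from C (adjusted p = 0.37). The call was lost in 6 of the 9 omissions, and the B mice overlapped the low altitude range of 4.24 to 5.54. Iqcg, a protein of motile cilia, was at 3.86, 4.15 and 4.20 against 4.65 to 5.16 (1.83-fold lower, adjusted p = 0.00468). The A and C mice lay above all low altitude mice for Iqcg, and the B mice did not.

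Among the genes higher in B, Ppic, the secretory pathway isomerase cyclophilin C, had the largest difference. It was at 8.68, 8.30 and 8.97 in B1, B2 and B3, 6.03, 6.10 and 6.24 in the A mice, and 5.48, 7.42 and 5.73 in the C mice. The difference was 2.48 ± 0.44, or 5.59-fold (adjusted p = 0.0284), and the call was lost in 5 of the 9 omissions. The low altitude mice ranged from 5.87 to 8.81, which includes the levels of B1 and B2. E2f7, an atypical E2F repressor that acts in the polyploidisation of hepatocytes, was at 7.25, 6.01 and 7.22 against 4.30 to 4.75, 4.89-fold higher (difference 2.29 ± 0.37, adjusted p = 0.0204). It lost the call without B1, B3 or C1, with adjusted p up to 0.133. The 24 cell cycle genes listed had a median difference of -0.04 and none was called. Rnase2a, a ribonuclease of eosinophil granules, was at 8.46, 6.24 and 6.83 against 4.86 to 5.50 and above all 15 other mice. It was 3.93-fold higher (difference 1.98 ± 0.32, adjusted p = 0.0204), highest in B1, the mouse with the largest 3' minus 5' differences, and lost the call without B3. With the integrity covariate the difference was 1.28 (adjusted p = 0.414).

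Gm2a, the lysosomal activator of ganglioside breakdown, was at 10.89, 10.72 and 10.85 against 9.29 to 9.82, 2.36-fold higher in B (adjusted p = 0.0284). Its other bright probe set differed by 1.00 ± 0.50 (adjusted p = 0.513). The low altitude mice spanned 9.61 to 11.61. Pigt, a subunit of the transamidase that attaches proteins to their GPI anchor, was at 7.33, 7.40 and 6.97 against 5.19 to 5.93 (2.85-fold higher, adjusted p = 0.0157), but its brighter probe set differed by 0.03 ± 0.15. At the called Pigt probe set the B mice lay inside the low altitude range of 5.87 to 7.78 (median 7.27). The A and C mice lay near or below its lower end. Pgap6, a phospholipase that acts on GPI anchors, was higher at 2 probe sets, by 0.97 ± 0.18 and 0.86 ± 0.14 (adjusted p = 0.036 and 0.0204). Rims4, a member of a family of synaptic scaffold proteins, was higher at 2 as well, by 0.76 ± 0.10 and 0.57 ± 0.10 (adjusted p = 0.00469 and 0.0284), with every B mouse above the other 15 in both. Phf20l1, a chromatin reader, was 1.88-fold higher (adjusted p = 0.0167) and above all 15 others, and its other 4 probe sets differed by 0.84 to 1.15 without passing. Sfxn5, a mitochondrial carrier, was at 7.77, 8.02 and 7.97 in B, 6.87 to 7.24 in A and C and 7.60 to 8.17 at low altitude. Here B lay among the low altitude mice, and the A and C mice stood below them. Xkr8, a phospholipid scramblase, had a similar arrangement, with A and C below all low altitude mice (0.89 ± 0.15, adjusted p = 0.0207), but its brighter probe set differed by -0.32 ± 0.12. Of the remaining genes named, Gm11827 was 3.34-fold, Psma8, a testis form of a proteasome subunit, 3.22-fold and Lrrfip2 2.33-fold higher. Each of these 3 lost the call in at least 5 omissions.

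Fcna, the ficolin A of macrophages, which starts the lectin pathway of complement, was at 6.92, 7.23 and 6.98 in B1, B2 and B3. It was at 9.44, 9.32 and 9.18 in the A mice and 8.46, 7.78 and 7.44 in the C mice, and the B mice lay below all 15 others. The difference was -1.56 ± 0.24, 2.94-fold lower (adjusted p = 0.0157). It was -2.27 from A (adjusted p = 0.00274) and -0.85 from C (adjusted p = 0.376). Fcgr2b, the inhibitory receptor for immunoglobulin G that liver sinusoidal endothelium carries, was 1.63-fold lower (8.32, 8.67 and 8.36 against 8.98 to 9.47, adjusted p = 0.0416). It lost the call in 7 of 9 omissions. Its brighter probe sets differed by -0.18 ± 0.14 and -0.59 ± 0.18 without passing (adjusted p = 0.713 and 0.226). Its dimmer ones differed by -0.52 and 0.23 and did not pass either. Cxcr6, a chemokine receptor of liver T and NK cells, was at 4.55, 4.26 and 4.03 in B, 5.35 to 6.18 in A and 4.16 to 4.53 in C. Its call (adjusted p = 0.0416) thus rests on A, from which B differed by -1.59 (adjusted p = 0.00192), against -0.07 from C (adjusted p = 0.973).

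Of 17 Kupffer cell and macrophage markers, 14 were lower and 3 higher in B, with a median difference of -0.43, and none was called. Cd163, the haemoglobin scavenger receptor, was at 7.02, 7.29 and 6.10 against 7.69 to 9.24 (difference -1.76 ± 0.39, adjusted p = 0.0714). Clec4f, the marker most restricted to Kupffer cells, was at 9.69, 9.74 and 9.90 against 10.03 to 10.75 (difference -0.64 ± 0.18, adjusted p = 0.167). In neither gene did the B mice overlap the others, and neither gene passed. The mean level of the list was 8.67, 8.86 and 8.40 in B1, B2 and B3 and 8.53 to 9.58 in A and C, and its median difference was -0.19 with the integrity covariate. A and C themselves differed by a median of 0.54 over these markers, a larger size than the -0.43 of B from the mean of A and C. Mean levels were 9.29 in A, 8.87 in C and 8.64 in B. The 15 hepatocyte markers were at a mean of 13.88, 13.90 and 13.89 in the B mice and 13.83 to 13.98 in A and C, with none called. Of 18 T and NK cell markers 14 were lower, with a median of -0.16, and Cxcr6 was the 1 called. The mean level of that list was 5.57 in B, 5.50 in C and 6.16 in A, so that B was lower than A and not lower than C. The part of cell composition in these results was not tested.

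Of the called histocompatibility genes, H2-Aa and H2-D1 were read by minor probe sets, and H2-M3 by its only single-gene probe set. H2-Aa, the alpha chain of a class II molecule, was at 4.50, 5.61 and 4.12 in B against 2.91 to 3.66 (2.64-fold higher, adjusted p = 0.0157). Its 3 brighter probe sets, at mean levels of 8.86 to 9.45, differed by 0.93, 0.35 and -0.52, and none passed. H2-D1, a class I heavy chain, was at 7.96, 7.09 and 6.64 against 5.64 to 6.25 (2.39-fold higher, adjusted p = 0.024), with a difference of 0.73 ± 0.82 at its brightest probe set. The class I and class II genes are members of families with similar, highly variable sequences, and the signal of single probe sets cannot be assigned to 1 gene with certainty. H2-M3, a class I molecule that presents formylated peptides, was 1.79-fold lower (adjusted p = 0.0458), its B mice overlapped the C mice, and it lost the call in each omission. The 14 class I and immunoproteasome genes had a median difference of -0.02, and the 11 class II genes one of -0.04.

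Cela2a, a pancreatic elastase, was at 6.77, 5.38 and 6.94 in B1, B2 and B3 against 4.53 to 5.47 (2.66-fold higher, adjusted p = 0.0284), and B2 overlapped the others. The call was lost in 5 omissions, with adjusted p up to 0.186. No other acinar marker was called. Of the 16 measured, 6 were higher and 10 lower with a median of -0.02, and Prss2, Cela3b, Cpa1, Ctrb1 and Cel differed by -0.06 to -0.00. The mean level of the list was 5.43, 5.70 and 5.60 in the B mice and 5.32 to 5.87 in A and C.

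Whether other probe sets of a called gene differed in the same way was examined for the 38 called genes that had one above the median level of 5.69. The brightest other probe set had the same direction in 32 and the opposite direction in 6, and 20 of the 32 had an unadjusted p under 0.05. Over all probe sets 51.0% were higher in B, and 3612 of 34945 had an unadjusted p under 0.05. In most of the 38 genes the brightest other probe set had a smaller difference than the called one. Among the named genes, this probe set had an opposite or near-zero difference for Sdc4, Sod1, Xkr8, Mtap and Pigt. At least 1 uncalled probe set above the median level differed by at least 0.69 in the direction of the call for Plaat3, Amdhd1, Hsd17b11, Mtap, Lrrfip2, Gm2a, Phf20l1, H2-Aa and H2-D1. Mtap thus has probe sets of both kinds. At those H2-D1 probe sets C1, or C1 and B3, stood far from the other mice. At the brightest, C1 was at 8.63 and the other high altitude mice at 12.39 to 13.33. Its difference ranged from 0.05 to 1.16 on omission of a mouse. Probe sets of 1 gene read different stretches of its transcripts, and which stretch each reads was not analysed here.

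**Figure D4:**
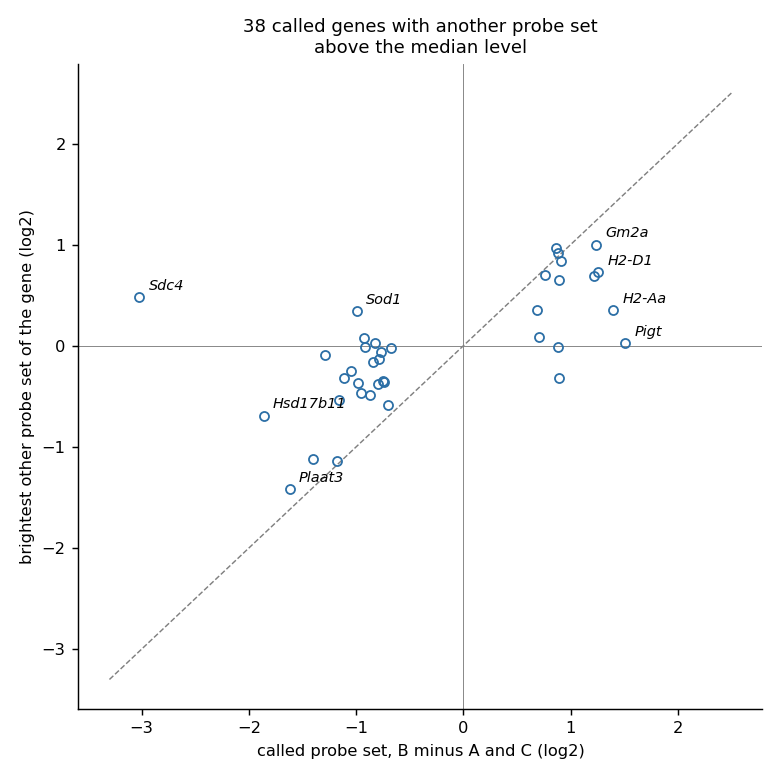
Log2 difference of B from A and C at the called probe set (x axis) and at the brightest other probe set of the same gene (y axis), for the 38 called genes with another probe set above the median level. The dashed line marks equal values. Most points lie between the line and 0, and Sdc4, at -3.02 and 0.48, lies furthest from the line.

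The low altitude mice place these differences. In 33 of the 75 called probe sets the B mice lay outside all 15 other mice, as they did in 0.836% of all probe sets, and in 39 they lay within or overlapped the low altitude range. The A and C mice lay apart from all low altitude mice in 5, namely Iqcg, Sfxn5, Xkr8 and, outside the rule for named genes, Cnpy2 and Abcb8. How often B overlaps low altitude, or A and C lie apart from it, was not counted over all probe sets. No result is read from those counts. Along the RefSeq gene order of the mouse (assembly GRCm38.p6), 25.0% of the 72 called genes had another called gene within 20 tested genes, against 14.0% of 17958 other genes. For the 19 genes that differed between A and C these shares were 10.5% and 3.95%. Within 5 tested genes the shares were 11.1% and 3.77% for the B comparison and 0.0% and 1.05% for A against C. Sdc4 and Pigt have 3 tested genes between them and differ in opposite directions, at -3.02 and 1.51, and Rims4, at 0.76, lies 17 tested genes from Sdc4. Gm20300, at -2.41, has 3 tested genes between it and Hddc2, at 1.65. Phf20l1, at 0.91, has 2 between it and Ccn4, at 0.89, and Plaat3, at -1.62, directly adjoins Atl3, at 0.88. Hddc2, Ccn4 and Atl3 were named for their position after their values were seen. The shares are descriptions without a test.

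Of the 72 called genes 61 are in none of the 45 gene lists examined, and the 771 measured genes of those lists include 11 called (1.43%, against 0.396% of all genes). The lists were chosen with earlier results of these data known and hold Sdc4 and Cryaa, so no result is read from these shares. Fcgr2b, H2-Aa, H2-D1 and Sod1 count as called at a probe set that is not the brightest of the gene. Some lists without a called gene follow, and the plot of list medians shows all 45. The largest median was that of the 3 measured major urinary proteins, pheromone carriers that male liver secretes: all 3 were higher in B, with a median of 1.33, which was 0.71 without C1, and mean levels of 10.47, 9.82 and 9.62 against 6.17 to 9.73. A and C differed by nearly as much, at a median of 1.25. Of 25 acute phase proteins and their inducers 17 were higher, with a median of 0.28, which was 0.10 without B1. Of 17 genes of cholesterol synthesis and uptake 16 were higher in B, with a median of 0.80 and mean levels of 9.83, 10.36 and 9.73 in B1, B2 and B3. The A and C mice ranged from 7.92 to 10.25 and overlapped them, and the median was 0.45 without A2, 0.52 without B2 and 0.49 with the integrity covariate. Pmvk, which phosphorylates mevalonate phosphate, had the smallest p (8.39, 8.96 and 8.32 against 6.41 to 8.34, adjusted p = 0.478). Of 15 glucocorticoid targets and metallothioneins 13 were higher, with a median of 0.66, which was 0.41 without B3. Per1, a clock gene that glucocorticoids induce, was at 8.27, 7.54 and 7.92 against 6.84 to 7.45 (adjusted p = 0.249).

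Sex-biased genes of the liver were split. Of 16 male-biased genes 14 were higher in B (median 0.63; 0.98 without A1, 0.40 without A4 and 0.97 without C2), and of 13 female-biased genes 11 were lower (median -0.57, and -0.25 without A4), although all mice are males. None was called. Over the female-biased genes A and C differed by a median of -0.87, a larger size than the -0.57 of B from the mean of A and C. Mean levels were 6.94 in A, 7.83 in C and 6.37 in B. Cyp7b1, an oxysterol hydroxylase, was at 13.32, 12.65 and 13.44 against 8.85 to 12.57 (adjusted p = 0.487). Cyp2b9, a female-biased cytochrome P450, was at 4.75, 7.96 and 4.41 against 7.11 to 11.48 (adjusted p = 0.35). Cyp7a1, the rate-limiting enzyme of bile acid synthesis, was at 12.20, 12.12 and 12.29 against 8.13 to 12.12 (difference 1.76 ± 0.56, adjusted p = 0.253). The 16 genes of bile acid synthesis and transport had 8 higher and 8 lower.

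Of 21 genes that burn fatty acids or respond to PPAR alpha, 18 were lower, with a median of -0.20, which was -0.34 without B1. Vnn1, a pantetheinase and PPAR alpha target, was at 6.88, 7.44 and 6.64 against 7.53 to 10.63 (difference -2.72 ± 0.80, adjusted p = 0.201), and Plin2, a coat protein of lipid droplets, at 11.87, 11.36 and 11.25 against 11.77 to 12.48 (adjusted p = 0.126). Of 22 oxygen sensing genes and HIF targets 17 were higher, with a median of 0.12, which was 0.06 without B1 and 0.20 without B2. Pfkfb3, a glycolytic regulator induced by hypoxia, was at 7.90, 5.85 and 7.94 against 5.01 to 5.59 (difference 1.83 ± 0.41, adjusted p = 0.0826). All 9 mice come from the same altitude. The 17 measured genes of iron sensing and storage had 9 higher and 8 lower, with a median of 0.0 and none called. Among them, Tfrc, the transferrin receptor that takes up iron, was at 10.44, 9.22 and 8.43 against 6.74 to 8.26 (difference 1.79 ± 0.38, adjusted p = 0.0668). Hamp, which encodes the iron hormone hepcidin, was at 5.22 in B1 and 13.58 and 13.48 in B2 and B3, against 10.88 to 13.77. B1 alone was low, the difference of -2.29 ± 1.32 did not pass (adjusted p = 0.59), and without B1 it was 0.48.

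**Figure D5:**
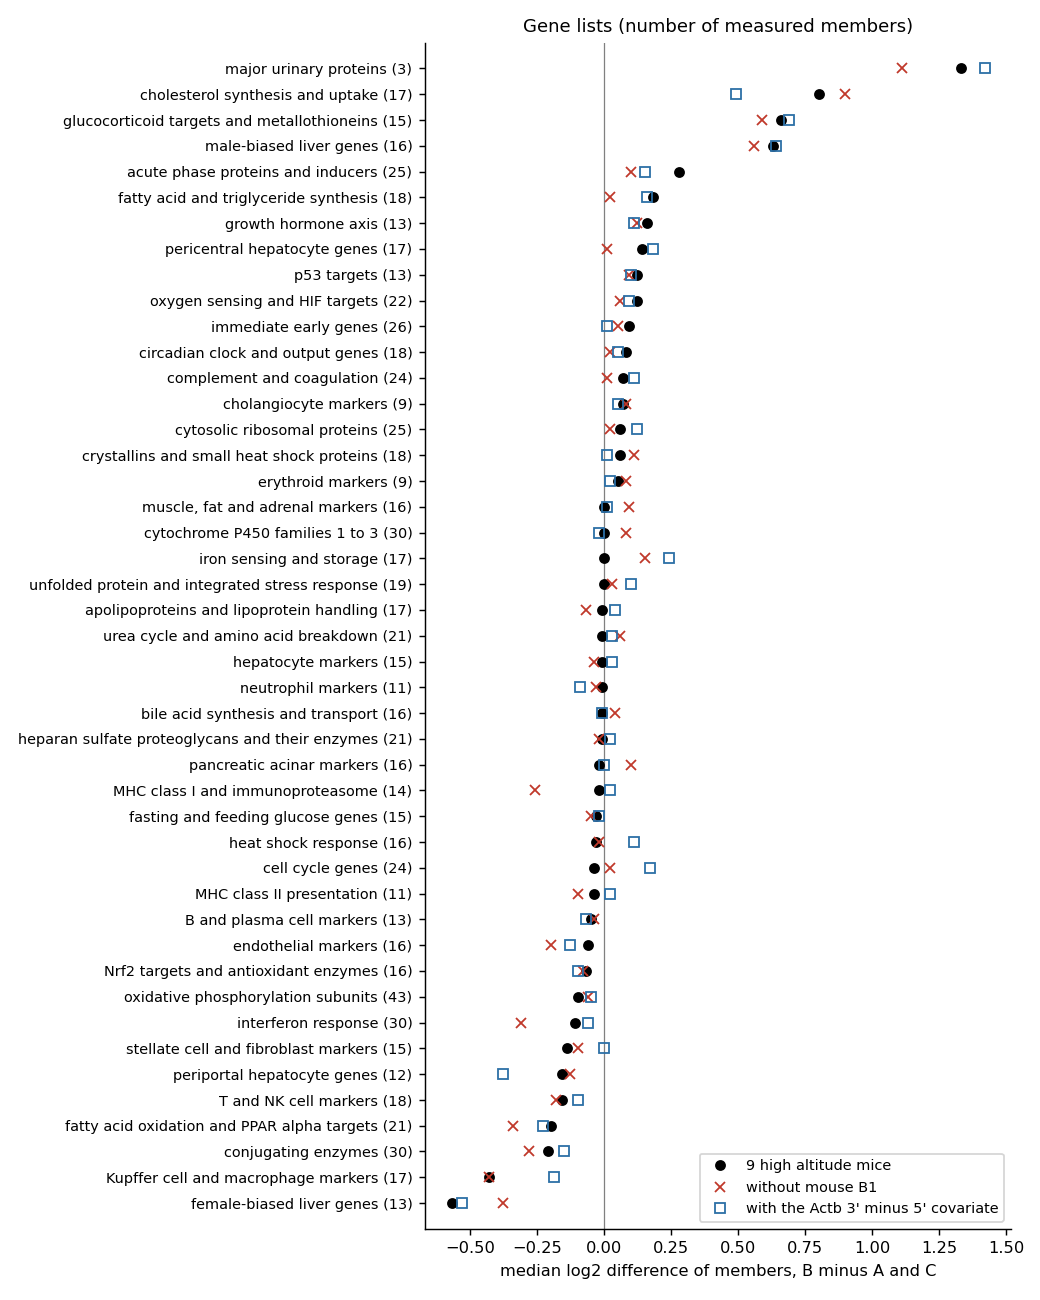
Median log2 difference of B from A and C over the measured members of each of 45 gene lists (x axis; lists on the y axis with their number of members). Filled circles use all 9 high altitude mice, crosses leave out B1, and squares use the Actb 3' minus 5' covariate. Most medians lie near 0; the major urinary proteins, at 1.33, and cholesterol synthesis, at 0.80, are highest, the female-biased genes, at -0.57, are lowest, and 8 medians change sign with the covariate.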

How the data were processed

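The authors deposited log2 values for 18 arrays, 1 per mouse, made with RMA in affy per the submitters' processing notes; no version or genome build is named there. Liver RNA was labelled as biotinylated cRNA, per the labels' protocols. The number of arrays limits the precision. Of 45101 probe sets, 64 controls, 932 with several genes and 9160 without a gene name were left out of the tests. Gene names come from the platform annotation; 34741 of 34945 single-gene probe sets matched RefSeq by gene ID.

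limma 3.58.1 in R 4.3.3 was fitted to 6 location means over all 18 arrays (lmFit, eBayes with trend). The contrast was B minus the mean of A and C, two-sided, adjusted by Benjamini-Hochberg over 34945 probe sets and called under 0.05. The fit was tested on simulated data. Control differences were compared by exact permutation. Named genes were, per direction, the 12 largest non-overlapping called differences and the 10 smallest p, with called list members, Hamp and the 4 genes already known. List members are described at the brightest probe set of each gene, and a gene counted as called if any probe set was. Members, lists and rules were chosen with earlier results of these data known. Mice that share a number across locations did not deviate together (7 pairs, correlations from -0.292 to 0.215), so no pairing was used. Alternatives were covariates for RNA integrity, other arrays, filters, scalings and variance models, and the omission of each mouse.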

Additional observations from a re-analysis of the deposited data

Results flagged for a closer look

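In the 6 mice of high altitude locations A and C, 44 measures were examined for a mouse that stands apart from the rest (Dixon's criterion, which chance meets in about 1 of 20 such groups), and 5 met it. Hamp was 10.88 in C1 against 13.20 to 13.77 in the other mice. Amdhd1 was 10.83 in C1 against 9.94 to 10.21. Pigt was 5.19 in A4 against 5.70 to 5.93. The Actb 3' minus 5' difference was 0.84 in A1 against 1.21 to 1.38, and that of Gapdh was -0.11 in A1 against 0.07 to 0.18. A1 therefore lay on the opposite side of the A and C mice from location B in both integrity measures.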

How the results depend on the processing

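Against 75 called probe sets, 30 higher and 45 lower in B, limma called 16 (8 and 8) with the 9 high altitude arrays alone, and 18 (9 and 9) with A and C as 1 group of those arrays. It called 66 (19 and 47) for B against A, 32 (15 and 17) for B against C, 48 (21 and 27) with 1 probe set per gene and 31 (13 and 18) with a 2-fold minimum. With array weights it called 498 (183 and 315). RNA integrity covariates left 3 (1 and 2) for Actb, 4 (1 and 3) for Gapdh and 1 (0 and 1) for pyruvate carboxylase, the last chosen after seeing the data and with 1705 probe sets at an unadjusted p under 0.05 in limma. With the mouse number as a replicate block there were 36 (12 and 24); the numbers are names and pair no mice. Omission of 1 mouse gave 11 to 114 calls, 5 to 52 higher and 6 to 64 lower. Counts under the other scalings, filters and variance models tried were 67 to 99. Some settings use fewer arrays or probe sets, and why the counts differ was not tested.

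Among the named genes, the brightest probe set had the opposite sign for Rfx4 (0.14), Sod1 (0.34) and Xkr8 (-0.32). Hamp changed sign with the Actb covariate (0.30), with that of pyruvate carboxylase (2.02) and without B1 (0.48), over a range of -3.70 to 0.48 on omission of a mouse; the causes were not tested. The other named genes kept their direction in every setting. The Actb integrity difference of 0.46 was 0.30 to 0.58 on omission of a mouse. With 2 B mice the smallest exact p is 0.0714. The difference was 0.27 by the transferrin receptor control. With 3 mice from 1 place, neither differences between places in general nor genes at or below the lowest signals can be judged.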
